A study of Mus musculus with 12 samples.

Results

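The genes described are those whose symbols name a Hox gene of clusters a to d, a Tbx gene, a Meis gene or a Pbx gene, taken by symbol alone. These tables list 45 of them among 18255 genes, namely 31 Hox genes (9 Hoxa, 9 Hoxb, 8 Hoxc and 5 Hoxd), 7 Tbx, 3 Meis and 4 Pbx genes. RNA of 3T3-L1 cells, a mouse preadipocyte line of embryonic fibroblast origin, was sequenced in 12 libraries, 4 groups of 3. The cells were either controls or overexpressed LIGHT (the product of Tnfsf14, a cytokine related to tumour necrosis factor), and both lines were taken undifferentiated and after beige differentiation. All groups were grown in DMEM with high glucose and serum. The differentiated groups had 48 h in induction medium with dexamethasone (2 µg/ml), IBMX (0.5 mM), rosiglitazone (1 µM), triiodothyronine (1 nM), indomethacin and insulin (5 µg/ml), and then rosiglitazone, triiodothyronine and insulin alone. The labels name neither the vector behind the overexpression, nor whether each line is a clone, nor the harvest day. The comparisons ask what differed between stages in each line, between lines at each stage, and whether the line difference depended on the stage.

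Hox genes encode homeodomain transcription factors that stand in 4 clusters, and their order along a cluster follows the part of the head to tail axis in which they are active in the embryo. Fibroblasts and fat precursors keep a Hox pattern that records the site they came from. Meis and Pbx proteins are homeodomain proteins of the TALE class that bind DNA together with Hox proteins. T-box (Tbx) factors set limb, heart and body wall identity, and several of them mark particular fat depots.

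Tnfsf14 was read first, since it checks the labels. Undifferentiated control libraries 1 to 3 gave 0, 1 and 0 counts, and undifferentiated LIGHT libraries gave 38, 53 and 58. After differentiation the libraries labelled control had 113, 0 and 0 counts and those labelled LIGHT had 0, 148 and 122. The library labelled differentiated control 1 and the library labelled differentiated LIGHT 1 therefore go against their labels, and results that use the differentiated groups are also given without these 2 libraries ("in the repeat"). Libraries held 16334079 to 19686675 expected counts, so that a floor of 3 counts equals 0.152 to 0.184 CPM (counts scaled to library size). Separate cultures are not named for the replicates, and p-values then speak only of the spread between libraries, which may be technical.

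The marker genes separated the stages. Summed over 7 adipocyte markers, levels ran from 40.4 to 66.9 CPM before and from 13000 to 18800 CPM after differentiation. The mean of Adipoq, which encodes the fat hormone adiponectin, went from 2.51 to 1270 CPM in the control line and from 1.83 to 1140 CPM in the LIGHT line. Of the beige markers, Ppargc1a had group means of 8.04 and 9.77 CPM after differentiation, and Ucp1, Cidea, Prdm16, Dio2, Tmem26 and Tnfrsf9 were at or below 0.212 CPM in every group mean, and Ucp1, the defining thermogenic marker, had at most 2 counts in a library and was not detectable at this depth in most of them. The 6 preadipocyte and fibroblast markers listed summed to 6220 to 7410 CPM in undifferentiated control libraries and 10900 to 11800 CPM in undifferentiated LIGHT libraries. After differentiation the sum was 8900 to 12200 CPM. Their sum thus differed between the lines before differentiation, but the markers did not move as 1. By the edgeR test described below 3 of the 6 were higher and 1 lower in LIGHT cells then, and 4 and 1 without the 2 libraries. Markers of leukocytes (5 of 7 listed) were at 3.09 to 4.04 CPM in undifferentiated control and 1.23 to 1.59 CPM in undifferentiated LIGHT libraries, those of endothelium (4 of 4) at no more than 1.1 CPM and those of neural cells (4 of 4) at no more than 4.18 CPM in any library. Epithelial markers (3 of 4, mostly Krt8 and Krt18, with Cdh1 at or near 0) were at most 0.337 CPM before and 1.49 to 10.5 CPM after differentiation, and muscle markers (2 of 4, Des, with Myog at or near 0) went from 5.66 to 7.3 CPM up to 14.3 to 25.7 CPM. The part of these cell type markers in the results was not tested. In bulk RNA, fewer cells of a type and less RNA per cell cannot be told apart.

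Which clusters and paralogs were expressed was read from a group mean of at least 1 CPM in any of the 4 groups. By that measure 26 of the 45 genes were expressed: 6 Hoxa, 4 Hoxb, 2 Hoxc, 4 Hoxd, 4 Tbx, 3 Meis and 3 Pbx genes. At 0.5 CPM the number was 31 and at 2 CPM it was 25. The Hox genes formed a pattern along the clusters. Of the 16 expressed Hox genes, 10 carried numbers 1 to 5 (among them Hoxa2, Hoxa3, Hoxa4, Hoxa5, Hoxb2, Hoxb3, Hoxb4, Hoxd3 and Hoxd4) and 5 carried numbers 6 to 9 (Hoxa7, Hoxb6, Hoxc9, Hoxd8 and Hoxd9). Of numbers 10 to 13, Hoxc13 was the 1 expressed gene.

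The other 15 listed Hox genes had at most 20 counts in any library. Hoxb5 was read in all 12 libraries at 2 to 16 counts and Hoxd10 at 2 to 14 counts. Hoxb8 was at 0 in every undifferentiated control library and reached 20 counts after differentiation. Hoxc6 was read in undifferentiated control libraries 1 to 3 with 3, 3 and 12 counts and in no undifferentiated LIGHT library. With the 0 set to a group floor of 3 counts it was 6.27-fold higher in the control line. That ratio leaves out the counting error of the control libraries and rested on control library 3. It was 3.11-fold without that library. Without LIGHT library 2 or 3, each at 0 counts, it was 4.08-fold and 4.13-fold. Those falls come from the floor of 3 counts, which then stood for fewer libraries. Hoxc6 did not pass the filter on low counts and was not tested. Hoxa6, Hoxa9, Hoxa10, Hoxb7, Hoxb9, Hoxb13, Hoxc4, Hoxc5, Hoxc10, Hoxc11 and Hoxc12 had at most 7 counts in any library. Within a cluster the neighbours of an expressed gene could be near 0: Hoxa6 was listed in 1 library at 5 counts between Hoxa5 and Hoxa7, and Hoxc12 in 1 library at 3 counts beside Hoxc13. Tbx4 and Tbx10 had at most 3 counts. A further 14 genes of the same naming in the RefSeq annotation (Hoxa11, Hoxa13, Hoxb1, Hoxc8, Hoxd1, Hoxd11, Hoxd12, Hoxd13, Tbx1, Tbx5, Tbx19, Tbx20, Tbx21 and Tbx22) were listed in none of the 12 tables and are not analysed here.

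Levels between genes were compared in the deposited FPKM, which divide by gene length. Averaged over all 12 libraries Pbx2 was highest at 31.8 FPKM, followed by Hoxd8 at 27.6, Meis2 at 20.7, Hoxa7 at 14.4, Meis3 at 13.6, Hoxa2 at 11.8, Hoxb2 at 11.2 and Hoxd9 at 9.94 FPKM. Neighbours in this order overlapped in part: Hoxa2 (6.68 to 17.1 FPKM over libraries) and Hoxb2 (9.04 to 14.6 FPKM) spanned each other's means. Among T-box genes Tbx15 led with 8.22 FPKM and Tbx18 followed with 6.95 FPKM. Tbx3 had 1.68 and Tbx2 1.54 FPKM. The highest member of each Hox cluster was Hoxa7, Hoxb2, Hoxc13 (7.87 FPKM) and Hoxd8.

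**Figure D1:**
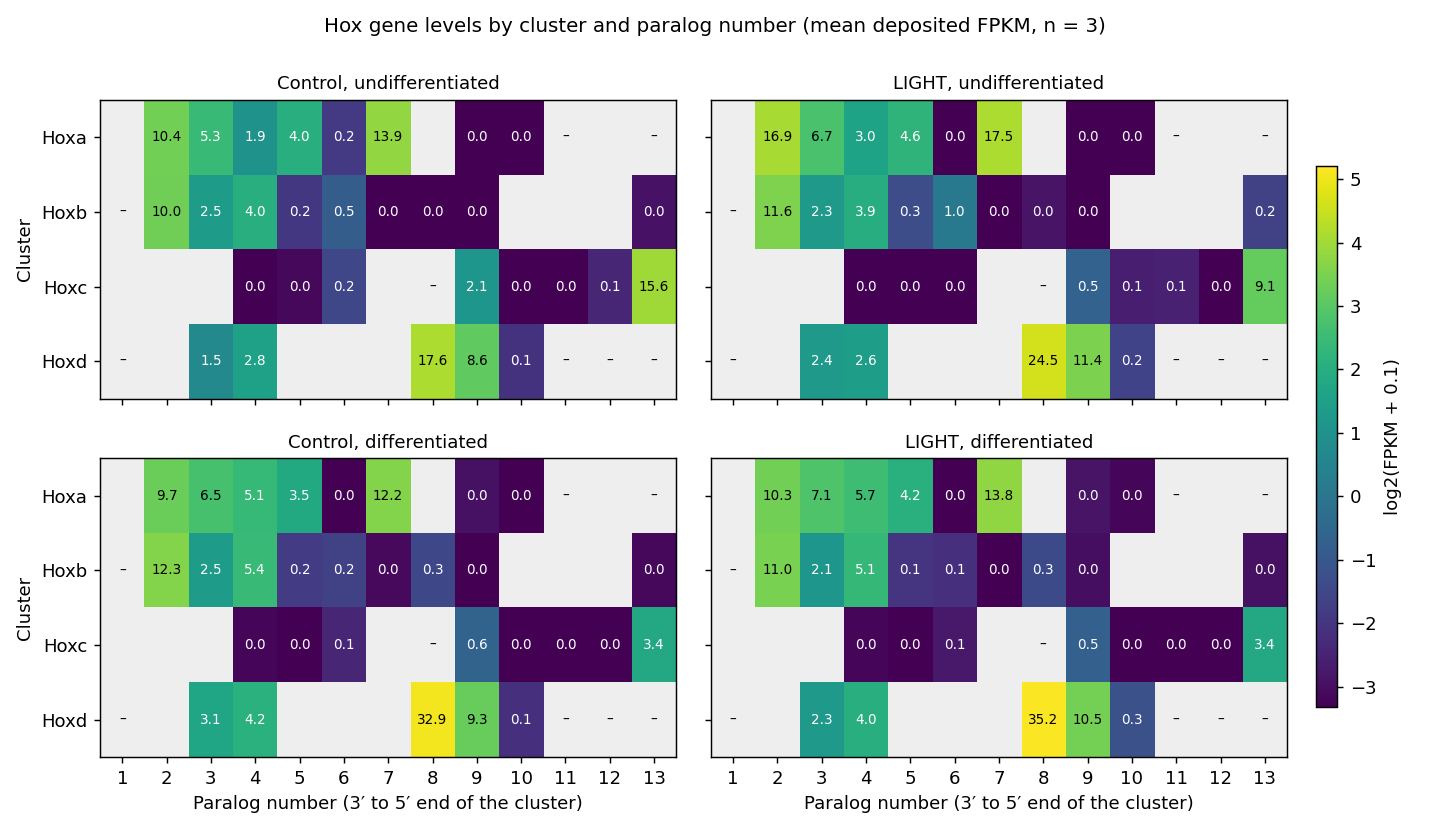
Mean deposited FPKM (n = 3 libraries as labelled) of each Hox gene, with clusters as rows and paralog numbers as columns, in the 4 groups; the colour is log2(FPKM + 0.1), a dash marks a gene listed in no library and a blank a position with no gene or one not shown. Hoxc13 goes from 15.6 FPKM in undifferentiated control cells to 9.07 in undifferentiated LIGHT cells and 3.41 and 3.43 after differentiation, and Hoxd8 from 17.6 and 24.5 to 32.9 and 35.2.

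The balance between clusters differed between groups. Hoxc genes made up 17.4% ± 0.359 (SD, n = 3) of the summed Hox FPKM in undifferentiated control libraries and 8.1% ± 0.979 in undifferentiated LIGHT libraries. After differentiation the Hoxc share was 3.6% ± 1.03 in libraries labelled control and 3.4% ± 0.71 in those labelled LIGHT. The repeat left shares of 3.9% and 4.5% in the control libraries and 2.8% and 3.3% in the LIGHT libraries. The Hoxd share was 29.5% ± 0.785 and 34.2% ± 1.57 in the 2 undifferentiated groups and 43.8% ± 1.18 and 44.3% ± 1.47 in the differentiated groups. Libraries of the 2 stages did not overlap in either share. The Hoxa share lay between 31.2% and 41.9% and the Hoxb share between 14% and 20.1% in every library, with stages overlapping. In the repeat the differentiated lines did not overlap in these: the Hoxa share was 31.2% and 31.7% in control and 37.8% and 39.9% in LIGHT libraries, and the Hoxb share 19.6% and 20.1% in control and 14% and 14.7% in LIGHT libraries. These shares are descriptions, with no test.

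For context on sequence, the 250 bases before the RefSeq start of 3 genes are printed. Hoxa2, Hoxd8 and Meis2 are 3 of the genes that were higher in LIGHT than in control cells before differentiation, chosen with those values known. Sequences are from RefSeq on GRCm38.p6. The deposited tables carry no positions, and their build was mm8, so no value here was measured on these coordinates. Capitals mark matches, on either strand, to the Hox-Pbx composite letters TGATNNAT and to the Meis letters TGACAG.
Hoxa2, chr6:52164832-52165081, minus strand: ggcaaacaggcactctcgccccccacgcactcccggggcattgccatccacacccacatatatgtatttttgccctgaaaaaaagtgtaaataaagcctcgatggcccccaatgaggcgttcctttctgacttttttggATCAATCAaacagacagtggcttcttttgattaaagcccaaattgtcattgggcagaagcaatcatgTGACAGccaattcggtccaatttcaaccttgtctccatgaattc
Hoxd8, chr2:74704365-74704614, plus strand: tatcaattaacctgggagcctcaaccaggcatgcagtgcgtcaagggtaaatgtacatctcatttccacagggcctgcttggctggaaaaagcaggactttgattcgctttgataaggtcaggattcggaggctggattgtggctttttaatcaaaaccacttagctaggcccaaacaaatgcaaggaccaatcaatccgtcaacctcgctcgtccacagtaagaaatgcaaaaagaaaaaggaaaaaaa
Meis2, chr2:116064620-116064869, minus strand: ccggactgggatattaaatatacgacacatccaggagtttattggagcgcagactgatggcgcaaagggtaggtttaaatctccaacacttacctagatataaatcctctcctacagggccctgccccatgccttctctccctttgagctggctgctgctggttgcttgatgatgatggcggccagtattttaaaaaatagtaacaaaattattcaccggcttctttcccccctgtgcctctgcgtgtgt
The Hoxa2 window held 1 match to each motif, which do not overlap. The Hoxd8 and Meis2 windows held none of these letters, nor the T-box letters AGGTGTGA. Of 32851 windows of that length in the table, 7.7% held the Hox-Pbx letters, 15.9% the Meis letters and 1.1% the T-box letters. The table held 24 of the 45 genes, and 14 windows of expressed genes, of which 1 (Hoxa2), 2 (Hoxa2 and Hoxa3) and 1 (Hoxd9) had a match, in the same order. A match is a description of letters, not of binding.

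Differences between groups were tested with edgeR's quasi-likelihood test over all genes, and a gene was called where its Benjamini-Hochberg adjusted p was under 0.05. All fold changes below are log2 fold changes of that test with their standard errors, and all levels are CPM scaled by TMM, with values by library in the order of replicates 1, 2 and 3. The filter on low counts left 29 of the 45 genes among 12993 tested, and 30 (Hoxd10 in addition) among 13150 in the repeat. Hoxb6, Hoxb8, Pbx4 and Tbx6 reached the level of the filter in 3 or 4 libraries, those of the groups where they were higher, so that a difference was built into their passing. Their tests support nothing and their counts are given in place of them. Calls are therefore also given for the other 25 genes.

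In the control line every family had at least 1 gene called on differentiation, though among the Hoxa genes reported here only Hoxa4 was. Of tested Hox genes 47.1% were called and of tested Tbx genes 100% (Hoxb8 and Tbx6 included), a split that was not tested. Of 29 tested genes 19 were called, against 63.9% of all genes tested, a share close to that of these genes (65.5%). Rises numbered 11, with 32.2% of all genes rising, and falls 8, with 31.7% of all genes falling. Among the 25 genes the rises were Hoxa4, Hoxb4, Hoxd3, Hoxd4, Hoxd8, Meis3, Pbx2 and Tbx2. The falls included Hoxc9, Hoxc13, Meis1, Pbx3, Tbx3, Tbx15 and Tbx18. The 11 also hold Hoxb8, Pbx4 and Tbx6, whose tests support nothing. The median change was 0.08 over the 29 genes and 0 over all genes. Of the 25 genes that did not rest on 1 group to pass the filter, 8 rose and 8 fell, with a median of 0.05, and 11 rose and 10 fell in the repeat. In the repeat 25 of 30 were called (14 rose and 11 fell), against 70.7% of all genes, and all 19 calls were among them with the same sign; 35.8% of all genes rose and 34.9% fell there. Libraries of the 2 stages did not overlap for 19 of 29 genes, against 67.7% of all genes. Hoxb6, Hoxb8 and Pbx4, set aside above, were among the 19.

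In the LIGHT line 18 of 29 genes were called on differentiation, against 58.6% of all genes. Rises numbered 7 (29.5% of all genes rose) and falls 11 (29.1% of all genes fell). Among the 25 genes the rises were Hoxa4, Hoxb4, Hoxd4, Hoxd8, Pbx2 and Tbx2. The falls included Hoxa2, Hoxa7, Hoxc13, Meis1, Meis2, Pbx3, Tbx3, Tbx15 and Tbx18. The 7 also hold Hoxb8 and the 11 Hoxb6, whose tests support nothing. The median change was -0.01, beside 0 over all genes. Of the 25 genes 6 rose and 10 fell, and 7 rose and 11 fell in the repeat. The repeat called 20 of 30 (8 rose and 12 fell), against 64.1% of all genes, with all 18 calls kept. Between stages the libraries did not overlap for 19 of 29 genes in the LIGHT line, against 66.6% of all genes. These too included Hoxb6, Hoxb8 and Pbx4. Of the genes called in both lines, 7 rose in both (Hoxb8 among them), with 24.6% of all genes rising in both, and 7 fell in both, with 23.4% of all genes falling in both. These are shares near those of all genes. In the repeat these numbers were 8 and 9, against 26.3% and 25.3% of all genes, and Hoxb2 was called in opposite directions, as were 2.21% of all genes, with a change of 0.60 ± 0.11 in the control line (adjusted p = 8.35e-05) and -0.29 ± 0.11 in the LIGHT line (adjusted p = 0.0336).

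**Figure D2:**
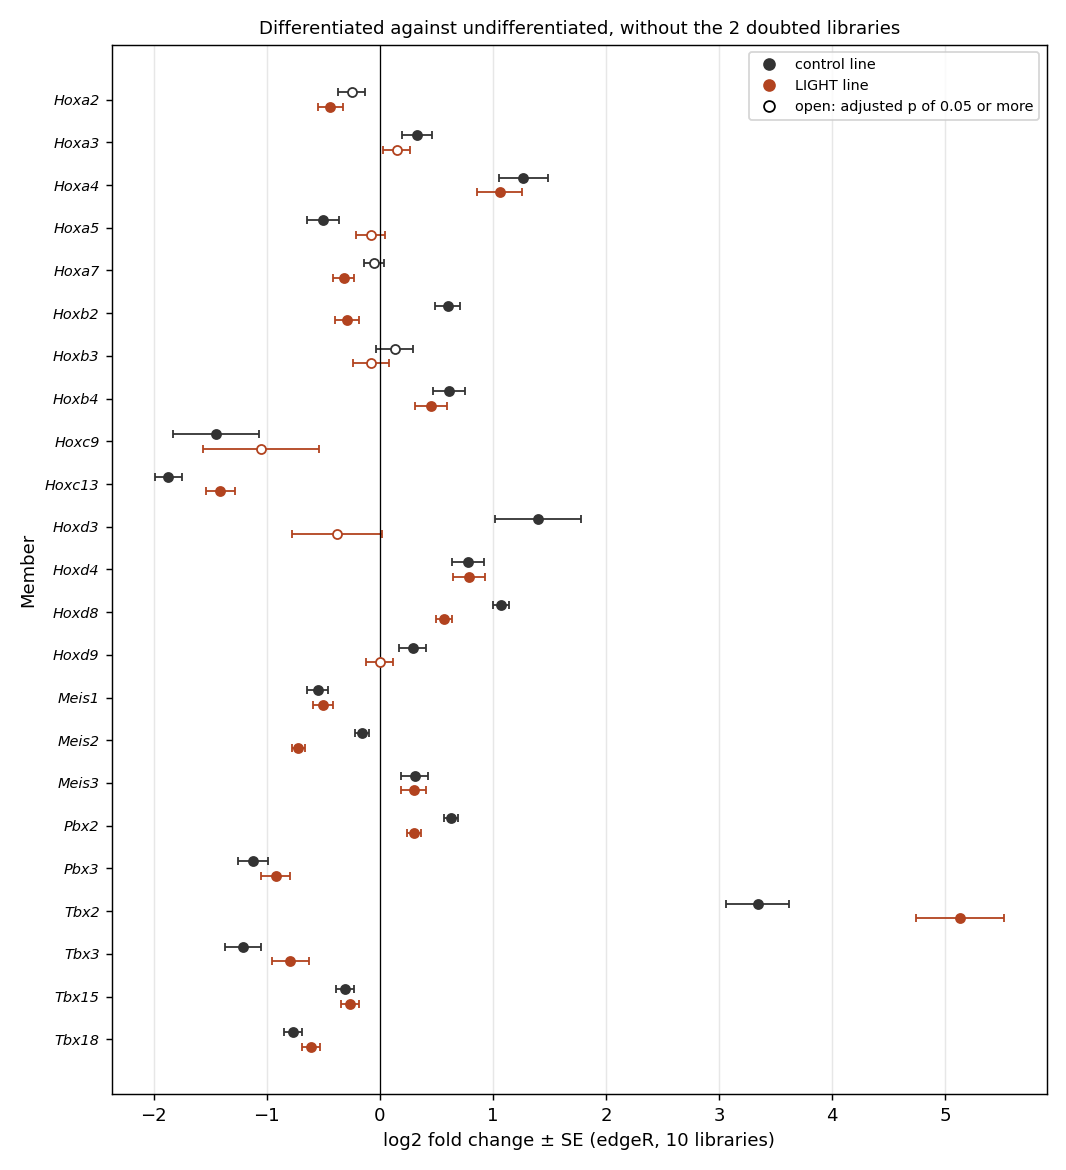
Log2 fold change on differentiation, with its standard error, in the control line (dark) and the LIGHT line (red) for 23 of the 30 genes tested without the 2 libraries that go against their labels; filled points have an adjusted p under 0.05, and the genes left out include Hoxb6, Hoxb8, Hoxd10, Pbx4 and Tbx6, which rest on few counts. Tbx2 stands farthest to the right in both lines, and Hoxc13 farthest to the left.

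Before differentiation LIGHT and control cells differed in 10 of 29 genes, against 26.5% of all genes. Hoxa2, Hoxa7, Hoxd8, Hoxd9, Meis2 and Pbx2 were higher in LIGHT cells (6 genes, with 12.3% of all genes higher), and Hoxc9, Hoxc13 and Tbx2 were among those lower (4 genes, with 14.2% of all genes lower). The median difference was 0.22 over the 29 genes and -0.01 over all genes. Libraries of the 2 lines did not overlap for 20 of 29 genes, against 52.3% of all genes. Hoxb6, Hoxb8 and Tbx6, set aside above, were among the 20. The repeat, whose spread is estimated without the 2 libraries, called 16 of 30 (12 higher and 4 lower), against 44.4% of all genes. All 10 calls were kept there with the same sign, and their log2 fold changes moved by at most 0.02. The repeat added Hoxa3, Hoxa4, Hoxa5, Hoxb2, Tbx15 and Tbx18, all higher. A fit of the 2 undifferentiated groups alone also called 16 (of 26 tested), against 45.2% of all genes, 15 of them shared with the repeat. The other was Hoxb6, set aside above. With 1 library left out the count ran from 5 to 13: it was 5 without control library 1 or without LIGHT library 1, 2 or 3, and 6 without control library 2.

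After differentiation, with the libraries as labelled, LIGHT and control cells differed in 0 of 29 genes by edgeR, and 0 of the 12993 genes tested were called (0% of all genes). None of the 29 had an unadjusted p under 0.05, and DESeq2 and limma also called 0. Libraries of the 2 lines did not overlap for 3 of 29 genes (Pbx4, set aside above, among them), against 6.77% of all genes. In the repeat 9 of 30 were called, against 31% of all genes. Hoxa2, Hoxa5, Meis2, Tbx15 and Tbx18 were higher in LIGHT cells, and Hoxb2, Hoxc9, Hoxd3 and Tbx2 were lower. The median difference over the 30 genes was 0.08, beside -0.01 over all genes. For these 9 genes, the library labelled differentiated control 1 lay nearer to the mean of LIGHT libraries 2 and 3 than to that of control libraries 2 and 3 in 8 (all but Hoxd3), and the library labelled differentiated LIGHT 1 lay nearer to the control mean in 9. That count was not made over all genes. Over the genes tested, the mean chi-square per gene between library 1 and libraries 2 and 3 labelled differentiated control was 45.8 and 48.7, against 4.11 between 2 and 3. For those labelled differentiated LIGHT it was 39.6 and 34.7, against 3.49. Library 1 of each group thus stood apart over all genes, not only in these 9. The repeat compares 2 libraries with 2.

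**Figure D3:**
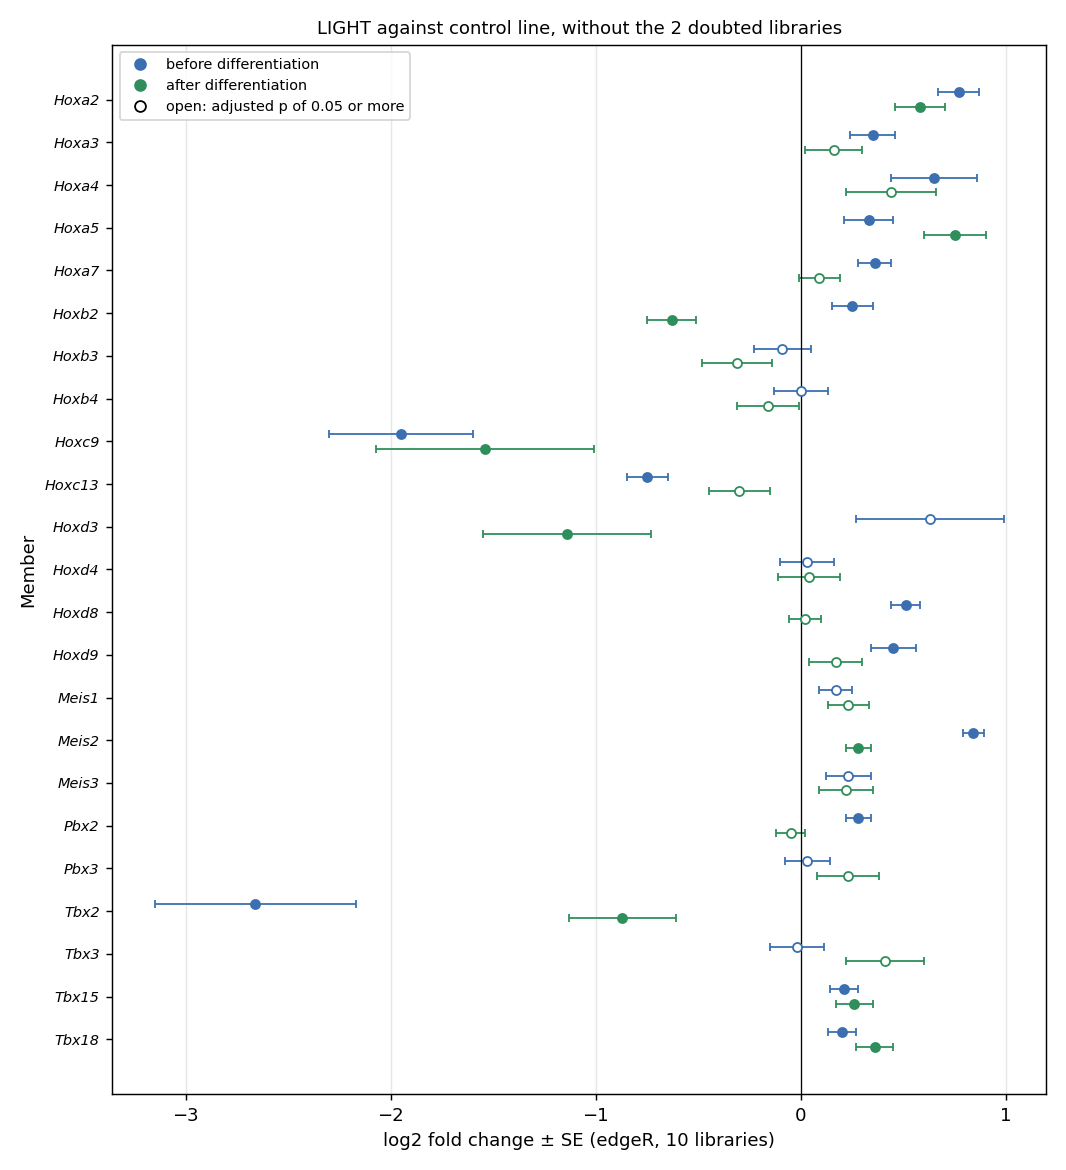
Log2 fold change of LIGHT against control cells, with its standard error, before (blue) and after (green) differentiation for the same 23 genes without the 2 libraries that go against their labels; filled points have an adjusted p under 0.05. Hoxa2, Hoxa5, Meis2, Tbx15 and Tbx18 are filled to the right at both stages, Hoxc9 and Tbx2 to the left at both, and Hoxb2 lies to the right before and to the left after.

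Whether the change on differentiation depended on the line was tested as an interaction, the LIGHT change minus the control change. It was called for 2 of 29 genes, Hoxd8 and Meis2, against 9.34% of all genes (both lower, with 4.26% of all genes lower), and for 8 of 30 in the repeat, against 31% of all genes. Of the 25 genes the repeat called 7, Hoxb2, Hoxd3, Hoxd8, Meis2, Pbx2 and Tbx2 among them. DESeq2 and limma on log2(FPKM + 0.5) each called 4 of 29 over all 12 libraries, against 12.6% and 10.4% of all genes.

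Hoxc genes were the lowest cluster after differentiation in these cells. Hoxc13, known for its role in hair and nail formation, was read at 31.1, 35.2 and 36.1 CPM in undifferentiated control libraries and at 21.3, 17.5 and 21.7 CPM in undifferentiated LIGHT libraries. In the differentiated groups it was at 6.03, 9.15 and 9.23 CPM in libraries labelled control and at 8.91, 7.71 and 7.31 CPM in libraries labelled LIGHT. Every undifferentiated library lay above every differentiated one, and the undifferentiated lines did not overlap. Hoxc13 fell by 2.06 on the log2 scale in the control line (SE 0.16, adjusted p = 1.55e-07) and by 1.34 in the LIGHT line (SE 0.16, adjusted p = 1.08e-05). In the repeat these were -1.87 ± 0.12 and -1.41 ± 0.13 (adjusted p = 3.41e-11 and 6.61e-09). Before differentiation it was lower in LIGHT cells, at -0.76 ± 0.15 (adjusted p = 0.0026). After differentiation the difference was -0.03 ± 0.16 with the libraries as labelled and -0.30 ± 0.15 in the repeat, neither of which was called (adjusted p = 0.979 and 0.132). The test of whether the fall depended on the line gave 0.73 ± 0.22 (adjusted p = 0.0559) and 0.45 ± 0.17 in the repeat (adjusted p = 0.0556).

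Hoxc9, a gene of trunk identity, was read at 3.35, 2.92 and 3.38 CPM in undifferentiated control libraries and at 0.768, 0.995 and 0.698 CPM in undifferentiated LIGHT libraries. In libraries labelled differentiated control it was at 0.435, 1.45 and 0.864 CPM and in those labelled differentiated LIGHT at 1.75, 0.581 and 0.183 CPM. The undifferentiated control libraries stood above all other libraries. It fell by 1.80 in the control line (SE 0.55, adjusted p = 0.0123), and by 1.45 in the repeat (SE 0.38, adjusted p = 0.00221). In the LIGHT line the change was 0.01 ± 0.61 (adjusted p = 0.988), and -1.05 ± 0.51 in the repeat (adjusted p = 0.079). LIGHT cells had less Hoxc9 before differentiation, at -1.96 ± 0.55 (adjusted p = 0.0209). That call ended when LIGHT library 1, 2 or 3 or control library 1 or 3 of the undifferentiated groups was left out, with adjusted p of 0.0551 to 0.0746, and it was stronger in the repeat, at -1.95 ± 0.35 (adjusted p = 0.000146). After differentiation the repeat gave -1.54 ± 0.53 (adjusted p = 0.0319), and all libraries -0.15 ± 0.60.

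Among the Hoxd genes, Hoxd3, Hoxd4 and Hoxd8 rose in the control line. Hoxd8, which acts in trunk and limb patterning, was read at 28.9, 33.9 and 32 CPM in undifferentiated control and at 43.4, 46.4 and 44.2 CPM in undifferentiated LIGHT libraries. Differentiated libraries had 63.2, 65.5 and 64.7 CPM in libraries labelled control and at 71.2, 68.3 and 63.9 CPM in libraries labelled LIGHT. The differentiated libraries were all above the undifferentiated ones, and the undifferentiated LIGHT libraries were all above the control ones. Hoxd8 rose by 1.03 ± 0.07 in the control line (adjusted p = 7.66e-08) and by 0.60 ± 0.07 in the LIGHT line (adjusted p = 1.1e-05), and by 1.07 ± 0.07 and 0.57 ± 0.07 in the repeat (adjusted p = 7.83e-11 and 7.37e-07). It was higher in LIGHT cells before differentiation, at 0.50 ± 0.07 (adjusted p = 0.00041). The rise was smaller in the LIGHT line, with an interaction of -0.43 ± 0.10 (adjusted p = 0.0194), and of -0.50 ± 0.10 in the repeat (adjusted p = 0.000985). The interaction was -0.39 (adjusted p = 0.0503) without the library labelled differentiated LIGHT 3 and -0.40 (adjusted p = 0.0619) without undifferentiated LIGHT library 2. After differentiation the lines differed by 0.07 ± 0.07 and, in the repeat, by 0.02 ± 0.08 (adjusted p = 0.913 and 0.91).

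Hoxd9, its neighbour on the side of higher numbers, was read at 14.2, 15.4 and 18.4 CPM in undifferentiated control and at 22, 22.6 and 20.6 CPM in undifferentiated LIGHT libraries. Libraries labelled differentiated control had 18.4, 17.5 and 20.8 CPM and those labelled differentiated LIGHT 18.9, 20.4 and 22.9 CPM. It was higher in LIGHT cells before differentiation, at 0.44 ± 0.11 (adjusted p = 0.014). Leaving out LIGHT library 2, control library 1 or control library 2 gave adjusted p of 0.0543 to 0.0639. The change on differentiation was 0.24 ± 0.12 in the control line (adjusted p = 0.0848), called in the repeat at 0.29 ± 0.12 (adjusted p = 0.0393), and -0.07 ± 0.11 in the LIGHT line (adjusted p = 0.634).

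Hoxd4 and Hoxd3 share reads. Expected counts of the pair were fractions in single genes but summed to whole numbers, to the 2 decimals of the tables, in 12 of 12 libraries. Hoxd4, a gene of hindbrain and neck identity, was read at 12.3, 9.61 and 8.45 CPM in undifferentiated control libraries, 9.98, 10.6 and 10.1 CPM in undifferentiated LIGHT libraries, 20.5, 17.9 and 16.3 CPM in libraries labelled differentiated control and 16.9, 18.4 and 16.8 CPM in those labelled differentiated LIGHT. The stages did not overlap. It rose by 0.85 ± 0.14 in the control line (adjusted p = 0.000133) and by 0.76 ± 0.14 in the LIGHT line (adjusted p = 0.000368), and by 0.78 ± 0.14 and 0.79 ± 0.14 in the repeat (adjusted p = 4.58e-05 and 4.68e-05).

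Hoxd3 was read at 0.693, 1.69 and 1.52 CPM, then 1.3, 2.88 and 1.77 CPM in the undifferentiated control and LIGHT libraries. Libraries labelled differentiated control had 2.86, 2.73 and 4 CPM and those labelled differentiated LIGHT 3.24, 1.48 and 1.58 CPM. It rose by 1.30 ± 0.42 in the control line (adjusted p = 0.0165), and by 1.40 ± 0.38 in the repeat (adjusted p = 0.00267). The call ended without the library labelled differentiated control 3 (1.12, adjusted p = 0.0601) and without undifferentiated control library 1 (0.99, adjusted p = 0.0674). In the LIGHT line the change was 0.07 ± 0.41 (adjusted p = 0.894). In the repeat it was lower in LIGHT cells after differentiation, at -1.14 ± 0.41 (adjusted p = 0.0414), and the interaction was -1.77 ± 0.55 (adjusted p = 0.0185). With both genes summed, the rise was 0.91 ± 0.12 in the control line (adjusted p = 1.9e-05) and 0.67 ± 0.11 in the LIGHT line (adjusted p = 0.000276). In the repeat the summed counts gave an interaction of -0.21 ± 0.17 (adjusted p = 0.383). The summed line difference after differentiation was -0.10 ± 0.13 there (adjusted p = 0.586). Hoxd3 gave 74 of the 376 summed counts in the library labelled differentiated control 3. In the library labelled differentiated LIGHT 3 it gave 26 of 302. The sum could thus hardly show a change of Hoxd3 alone and does not decide on those calls.

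**Figure D4:**
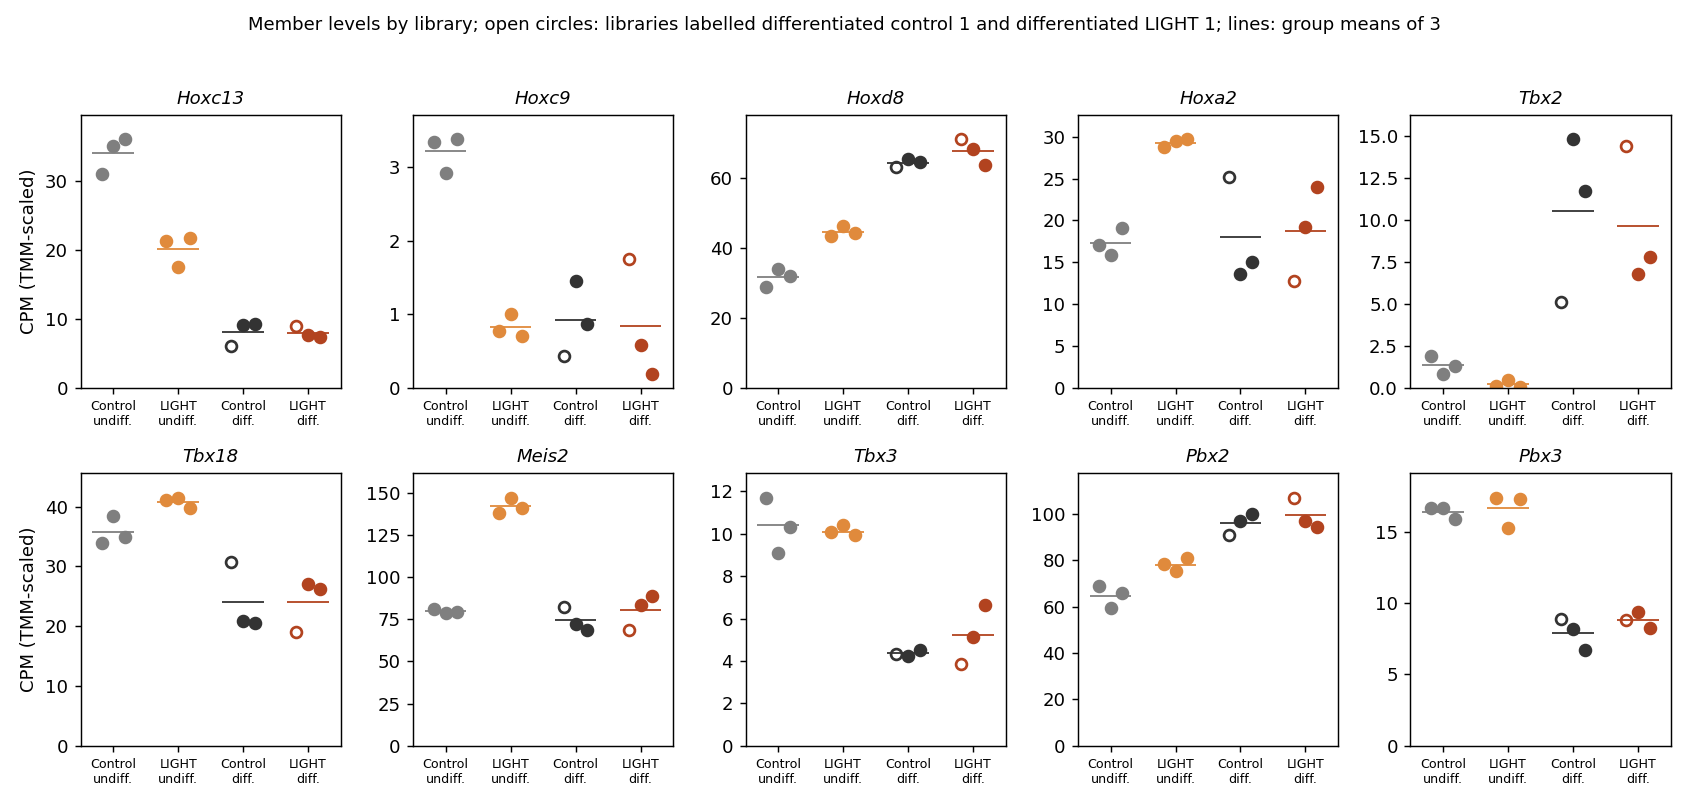
CPM of 10 genes in each library (points) with the mean of 3 (lines) in the 4 groups; each panel has its own vertical axis from 0, and open circles are the libraries labelled differentiated control 1 and differentiated LIGHT 1. Hoxc13 falls and Hoxd8 rises between the stages, Meis2 stands at 138 to 147 CPM in undifferentiated LIGHT libraries against 68.6 to 88.5 CPM in every other library, and in Hoxa2, Tbx2 and Tbx18 the open circles lie on the side of the other line.

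Hoxa2 to Hoxa5 and Hoxa7 were expressed in all groups. Hoxa7 was read at 27.4, 31.7 and 35.1 CPM in undifferentiated control and at 39.6, 42.8 and 37.4 CPM in undifferentiated LIGHT libraries. After differentiation it was at 29.9, 28.3 and 31.4 CPM in libraries labelled control and 35.5, 31.9 and 31.9 CPM in those labelled LIGHT. It was higher in LIGHT cells before differentiation, at 0.35 ± 0.09 (adjusted p = 0.0173), and fell by 0.27 in the LIGHT line (SE 0.09, adjusted p = 0.0258), and by 0.32 in the repeat (SE 0.09, adjusted p = 0.00535). Left-out libraries ended both calls: LIGHT library 2 or control library 1 the first (adjusted p = 0.0801 and 0.0757), and undifferentiated LIGHT library 1 or 2 or the library labelled differentiated LIGHT 2 or 3 the second (adjusted p = 0.0551 to 0.106). In the control line the change was -0.07 ± 0.10 (adjusted p = 0.539).

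Hoxa2, which patterns the hindbrain and the branchial arches, was read at 17, 15.9 and 19.1 CPM in undifferentiated control and at 28.8, 29.5 and 29.7 CPM in undifferentiated LIGHT libraries. Libraries labelled differentiated control had 25.2, 13.6 and 15 CPM and those labelled differentiated LIGHT 12.8, 19.2 and 24 CPM. The undifferentiated LIGHT libraries stood above all other libraries, and each differentiated group had its first library apart. Before differentiation the difference was 0.76 ± 0.23 (adjusted p = 0.0281), and 0.77 ± 0.10 in the repeat (adjusted p = 2.9e-06). With all other libraries kept, leaving out any 1 of the 6 undifferentiated libraries gave adjusted p of 0.0532 to 0.0961, and limma on log2(FPKM + 0.5) gave 0.69 (adjusted p = 0.0615). It fell by 0.65 on differentiation in the LIGHT line (SE 0.23, adjusted p = 0.0266), by 0.44 in the repeat (SE 0.11, adjusted p = 0.00134). That call ended without undifferentiated LIGHT library 1, 2 or 3, or without the library labelled differentiated LIGHT 1 or 2 (adjusted p = 0.053 to 0.0856). In the repeat Hoxa2 was higher in LIGHT cells after differentiation too, at 0.58 ± 0.12 (adjusted p = 0.00137).

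Hoxa4 rose in both lines. It was read at 2.42, 1.8 and 3.5 CPM in undifferentiated control and 4.25, 3.77 and 4.03 CPM in undifferentiated LIGHT libraries, and at 9.76, 5.88 and 6.32 CPM and 7.17, 7.55 and 9.14 CPM in libraries labelled differentiated control and LIGHT. Stages did not overlap. The rise was 1.51 ± 0.26 in the control line (adjusted p = 0.000211) and 0.98 ± 0.24 in the LIGHT line (adjusted p = 0.00391), and 1.27 ± 0.22 and 1.06 ± 0.20 in the repeat (adjusted p = 4.15e-05 and 0.00015). Before differentiation it was called higher in LIGHT cells in the repeat, at 0.65 ± 0.21 (adjusted p = 0.0167).

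Hoxa3 and Hoxa5, which act in the neck and chest region, were called in no comparison over all 12 libraries. The fit of the undifferentiated groups alone called both higher in LIGHT cells (0.35, adjusted p = 0.0174, and 0.34, adjusted p = 0.0298), as did the repeat. Hoxa5 was read at 13.7, 11.9 and 11.4 CPM and at 13.8, 14.8 and 17.5 CPM in undifferentiated control and LIGHT libraries, and at 14.3, 8.18 and 8.96 CPM and 9.35, 14.4 and 14.6 CPM in libraries labelled differentiated control and LIGHT. The first library of each differentiated group stood with the other group. In the repeat it fell by 0.50 on differentiation in the control line (SE 0.14, adjusted p = 0.00334), and was higher in LIGHT cells before (0.33 ± 0.12, adjusted p = 0.0258) and after differentiation (0.75 ± 0.15, adjusted p = 0.000678). Hoxa3 was read at 10.9 to 13.2 CPM, 13.8 to 15.7 CPM, 12.7 to 16.1 CPM and 14.5 to 16.8 CPM in the 4 groups in the same order. In the repeat it rose by 0.33 ± 0.13 in the control line (adjusted p = 0.0276) and was higher in LIGHT cells before differentiation, at 0.35 ± 0.11 (adjusted p = 0.019).

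Counts of Hoxa2 to Hoxa5 and the antisense gene Hoxaas2 were fractions too, and the labels do not say if strand was used, so reads may be shared among them. Their sum was whole in 4 of 12 libraries, so these 5 genes do not account for all the shared reads. Summed over these 5 genes the change on differentiation was 0.18 ± 0.16 in the control line (adjusted p = 0.339) and -0.21 ± 0.15 in the LIGHT line (adjusted p = 0.257), and 0.01 ± 0.08 and -0.06 ± 0.07 in the repeat (adjusted p = 0.942 and 0.511). The summed difference between lines before differentiation was 0.54 ± 0.15 (adjusted p = 0.0222), and after differentiation in the repeat 0.49 ± 0.08 (adjusted p = 0.000176). The line difference was thus called in the sum, and no change on differentiation was.

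Hoxb2, Hoxb3 and Hoxb4 were expressed in all groups. Hoxb2, a hindbrain gene, was read at 13.8, 14.7 and 14 CPM in undifferentiated control and 14.6, 17.9 and 17.6 CPM in undifferentiated LIGHT libraries. The differentiated groups had 15.1, 20.3 and 21.8 CPM in libraries labelled control and 22.6, 13.3 and 14 CPM in those labelled LIGHT, with the first library of each group near the others of the other group. Over all 12 libraries it was called in no comparison. In the repeat it was higher in LIGHT cells before differentiation (0.25 ± 0.10, adjusted p = 0.0489), lower after it (-0.63 ± 0.12, adjusted p = 0.000637), and the interaction was -0.88 ± 0.16 (adjusted p = 0.000299). The fit of the undifferentiated groups alone gave 0.26 ± 0.11 (adjusted p = 0.0573) for the first of these.

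Hoxb4, known for its action in blood stem cells, was read at 7.91, 9.22 and 10.6 CPM and at 9.04, 8.9 and 9.56 CPM in undifferentiated control and LIGHT libraries, and at 13.2, 13 and 14.7 CPM and 12.4, 11.2 and 13.8 CPM in libraries labelled differentiated control and LIGHT. Stages did not overlap. It rose by 0.56 ± 0.13 in the control line (adjusted p = 0.00207) and by 0.44 ± 0.13 in the LIGHT line (adjusted p = 0.0104), and by 0.61 ± 0.14 and 0.45 ± 0.14 in the repeat (adjusted p = 0.00069 and 0.00938). Hoxb3 (6.6 to 9.45 CPM over all libraries) was called in no comparison.

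Hoxb6 and Hoxb8 were near the floor. Hoxb6 was read at 0.462, 0.674 and 0.466 CPM and at 1.18, 0.943 and 1.29 CPM in undifferentiated control and LIGHT libraries, and at 0.435, 0.182 and 0.162 CPM and 0.187, 0.211 and 0.0609 CPM after differentiation as labelled. The undifferentiated LIGHT libraries stood above all others; no test is given, since it passed the filter through them. Hoxb8, which acts in myeloid progenitors, had 0, 0 and 0 counts in undifferentiated control, 2, 2 and 1 in undifferentiated LIGHT, 8, 7 and 20 in libraries labelled differentiated control and 11, 10 and 15 in those labelled differentiated LIGHT. With the 0 set to a group floor of 3 counts it was 11.9-fold higher after differentiation in the control line and 13.4-fold in the repeat. Leaving out 1 library of these groups gave 7.87-fold to 14.1-fold. The lowest came without undifferentiated control library 2, at 0 counts, where the floor of 3 counts stood for fewer libraries. These ratios leave out the counting error of the differentiated libraries. In the LIGHT line the ratio was 7.66, and 7.73 in the repeat. Hoxb8 passed the filter through differentiated libraries alone, so the ratios of both lines support nothing.

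Meis2, a TALE partner active in heart and face development, had the highest level of its family, and the lines stood apart before differentiation. It was read at 81.2, 78.9 and 79.3 CPM in undifferentiated control and at 138, 147 and 141 CPM in undifferentiated LIGHT libraries. After differentiation it was at 82.2, 72.3 and 68.6 CPM in libraries labelled control and 68.6, 83.6 and 88.5 CPM in those labelled LIGHT. The undifferentiated LIGHT libraries stood alone above the rest. Meis2 was higher in LIGHT cells before differentiation, at 0.83 ± 0.09 (adjusted p = 7.24e-05), and fell by 0.82 on differentiation in the LIGHT line (SE 0.09, adjusted p = 7.16e-06), and by 0.72 in the repeat (SE 0.06, adjusted p = 1.17e-09). In the control line the change was -0.10 ± 0.09 (adjusted p = 0.348), called in the repeat at -0.16 ± 0.06 (adjusted p = 0.0223). The interaction was -0.72 ± 0.13 (adjusted p = 0.0053) and -0.56 ± 0.08 in the repeat (adjusted p = 3.45e-05). After differentiation the repeat gave 0.28 ± 0.06 (adjusted p = 0.00215), so that LIGHT cells were higher at both stages there.

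Meis1, which with Hox proteins maintains blood progenitors, was read at 25.5, 24.8 and 24 CPM and at 27.3, 28.3 and 27.5 CPM in undifferentiated control and LIGHT libraries, and at 19.3, 16.2 and 17 CPM and 16.6, 18.7 and 20.4 CPM in libraries labelled differentiated control and LIGHT. It fell by 0.50 in the control line (SE 0.09, adjusted p = 0.000468) and by 0.58 in the LIGHT line (SE 0.09, adjusted p = 0.000172). In the repeat these were -0.55 ± 0.09 and -0.50 ± 0.09 (adjusted p = 1.92e-05 and 5.92e-05). The lines were not called apart at either stage. Meis3 was read at 17.4, 17 and 23 CPM and at 22.4, 22.6 and 21.7 CPM in undifferentiated control and LIGHT libraries, and at 25.5, 21.1 and 25.4 CPM and 22.4, 27.9 and 26.7 CPM in libraries labelled differentiated control and LIGHT. Control library 3 overlapped the differentiated ones. The rise in the control line was 0.33 ± 0.13 (adjusted p = 0.039), and 0.31 ± 0.12 in the repeat (adjusted p = 0.0254). It was 0.22 (adjusted p = 0.174) with scaling by library totals, 0.20 (adjusted p = 0.155) with limma on log2(FPKM + 0.5) and 0.33 (adjusted p = 0.0734) in a fit of the 2 groups alone. In the LIGHT line the change was 0.21 (adjusted p = 0.173), called in the repeat at 0.30 ± 0.11 (adjusted p = 0.0273). The control rise was not called without undifferentiated control library 1 or 2, undifferentiated LIGHT library 1 or 2, or the library labelled differentiated control 1 or 3 (adjusted p = 0.0508 to 0.148).

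Pbx genes, the other TALE partners, parted by paralog. Pbx2 rose and Pbx3 fell in both lines. Pbx2 was read at 68.9, 59.5 and 66 CPM in undifferentiated control, 78.4, 75.2 and 80.8 CPM in undifferentiated LIGHT, 91, 97.1 and 100 CPM in libraries labelled differentiated control and 107, 96.8 and 94.4 CPM in those labelled differentiated LIGHT. It rose by 0.57 ± 0.07 in the control line (adjusted p = 2.21e-05) and by 0.35 ± 0.07 in the LIGHT line (adjusted p = 0.00127), and by 0.63 ± 0.06 and 0.30 ± 0.06 in the repeat (adjusted p = 4.29e-08 and 0.000496). It was higher in LIGHT cells before differentiation, at 0.27 ± 0.07 (adjusted p = 0.0174), a call that ended without LIGHT library 1 or 3 or control library 2 (adjusted p = 0.052, 0.0603 and 0.0804). The interaction was -0.22 ± 0.10 (adjusted p = 0.21), called in the repeat at -0.33 ± 0.09 (adjusted p = 0.00943).

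Pbx3 was read at 16.7, 16.7 and 15.9 CPM and at 17.4, 15.3 and 17.3 CPM in undifferentiated control and LIGHT libraries, and at 8.89, 8.18 and 6.75 CPM and 8.79, 9.35 and 8.23 CPM in libraries labelled differentiated control and LIGHT. It fell by 1.05 in the control line (SE 0.12, adjusted p = 6.13e-06) and by 0.92 in the LIGHT line (SE 0.12, adjusted p = 2.22e-05), with no call between lines. In the repeat the falls were -1.12 ± 0.13 and -0.92 ± 0.13 (adjusted p = 2.37e-07 and 3.14e-06). Pbx4, a gene best known from testis, had 5, 3 and 0 counts in undifferentiated control, 0, 4 and 3 in undifferentiated LIGHT, 14, 11 and 13 in libraries labelled differentiated control and 8, 5 and 7 in those labelled differentiated LIGHT. The ratio after against before in the control line was 4.86, and 4.48 in the repeat. Pbx4 passed the filter through the differentiated control libraries alone, so these ratios support nothing.

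Tbx2 had the largest log2 rise on differentiation of the 25 genes in both lines. Tbx2, a repressor of the T-box family, was read at 1.9, 0.787 and 1.28 CPM in undifferentiated control and at 0.118, 0.419 and 0.0537 CPM in undifferentiated LIGHT libraries. Levels after differentiation were 5.1, 14.8 and 11.7 CPM in libraries labelled control and 14.4, 6.76 and 7.8 CPM in those labelled LIGHT. Every differentiated library was above every undifferentiated one. It rose by 2.99 ± 0.48 in the control line (adjusted p = 0.000148), and by 3.34 ± 0.28 in the repeat (adjusted p = 1.61e-09). In the LIGHT line the rise was 5.54 ± 0.63 (adjusted p = 9.04e-06), with 11 counts before and 487 after, a ratio of 47.1 (95% counting interval 26.1 to 94.9). The repeat gave 5.13 ± 0.39 (adjusted p = 7.05e-10), a ratio of 36 (19.8 to 73). Undifferentiated LIGHT library 2 held 8 of the 11 counts, and without it the ratio was 112 (38.2 to 546).

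Between lines Tbx2 was lower in LIGHT cells before differentiation, at -2.68 ± 0.74 (adjusted p = 0.019), with 69 counts in control and 11 in LIGHT libraries. That call ended without LIGHT library 1 or 3 or control library 1 (adjusted p = 0.0678 to 0.0749), or with limma on log2(FPKM + 0.5), where the difference was -0.67 (adjusted p = 0.128), and was -2.66 ± 0.49 in the repeat (adjusted p = 0.000194). After differentiation the difference was -0.13 ± 0.41 with the libraries as labelled and -0.87 ± 0.26 in the repeat (adjusted p = 0.961 and 0.0143). The interaction was 2.55 ± 0.86 (adjusted p = 0.087), and 1.79 ± 0.57 in the repeat (adjusted p = 0.0222).

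Tbx3, a repressor close to Tbx2 in sequence, went the opposite way. It was read at 11.7, 9.1 and 10.3 CPM and at 10.1, 10.4 and 9.93 CPM in undifferentiated control and LIGHT libraries, and at 4.35, 4.24 and 4.54 CPM and 3.86, 5.12 and 6.64 CPM in libraries labelled differentiated control and LIGHT. It fell by 1.24 in the control line (SE 0.18, adjusted p = 5.56e-05) and by 0.96 in the LIGHT line (SE 0.18, adjusted p = 0.000478). In the repeat these were -1.21 ± 0.16 and -0.79 ± 0.16 (adjusted p = 1.85e-06 and 0.000222). Between lines it differed by -0.03 ± 0.17 before and 0.25 ± 0.18 after differentiation (adjusted p = 0.917 and 0.913).

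Tbx15 and Tbx18, which mark mesenchyme of the body wall and fat depots, both fell. Tbx18 was read at 33.9, 38.4 and 34.9 CPM in undifferentiated control, 41.1, 41.5 and 39.7 CPM in undifferentiated LIGHT, 30.8, 20.8 and 20.5 CPM in libraries labelled differentiated control and 19.1, 27 and 26.3 CPM in those labelled differentiated LIGHT. The library labelled differentiated control 1 was the highest and the library labelled differentiated LIGHT 1 the lowest after differentiation. It fell by 0.57 in the control line (SE 0.16, adjusted p = 0.00599) and by 0.76 in the LIGHT line (SE 0.15, adjusted p = 0.00106). In the repeat these were -0.77 ± 0.08 and -0.61 ± 0.08 (adjusted p = 5.06e-08 and 9.42e-07), and LIGHT cells were higher before (0.20 ± 0.07, adjusted p = 0.0187) and after differentiation (0.36 ± 0.09, adjusted p = 0.00414).

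Tbx15 was read at 29, 28.3 and 28.7 CPM and at 32, 33.4 and 33.3 CPM in undifferentiated control and LIGHT libraries, and at 26.5, 22.7 and 22.8 CPM and 24.7, 28.2 and 26.3 CPM in libraries labelled differentiated control and LIGHT. It fell by 0.26 in the control line (SE 0.08, adjusted p = 0.0124) and by 0.32 in the LIGHT line (SE 0.08, adjusted p = 0.00401), and by 0.31 and 0.26 in the repeat (adjusted p = 0.00153 and 0.00485). The first of the calls over all libraries ended without the library labelled differentiated control 2 or 3 (adjusted p = 0.0621 and 0.0664). In the repeat LIGHT cells were higher at both stages, at 0.21 ± 0.07 before and 0.26 ± 0.09 after differentiation (adjusted p = 0.0165 and 0.0287).

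Tbx6, a gene of the presomitic mesoderm, had 2, 0 and 0 counts in undifferentiated control, 3, 3 and 5 in undifferentiated LIGHT, 1, 18 and 13 in libraries labelled differentiated control and 19, 5 and 4 in those labelled differentiated LIGHT. After differentiation the first library of each group stood with the other group. The control line gave a ratio of 16.4 after against before, and 23.1 in the repeat. On leaving out 1 other library of these groups it was 10.6 to 15.2. Without undifferentiated control library 1, which held both counts, it was 7.29 with the 0 set to a floor of 3 counts. In the LIGHT line the ratio was 2.71, and 1.26 in the repeat. Tbx6 passed the filter through differentiated libraries alone, so the ratios of both lines support nothing.

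Genes around the Hox system were read from 5 lists, whose changes are given as counts and were not tested as sets. Of all genes, 32.2% rose and 31.7% fell in the control line, and 29.5% and 29.1% in the LIGHT line. Before differentiation 12.3% were higher and 14.2% lower in LIGHT cells. In the repeat these shares were 35.8% and 34.9%, 32.3% and 31.9%, and 22.3% and 22.1%. After differentiation 14.6% were higher and 16.4% lower there. Of 12 tested TALE partners and other T-box genes, 3 rose and 3 fell on differentiation in the control line, 2 rose and 3 fell in the LIGHT line, and 4 were higher in LIGHT cells before it. In the repeat 3 rose and 4 fell in the control line, 3 rose and 3 fell in the LIGHT line, and 5 were higher and 1 lower in LIGHT cells before differentiation. Irx3, an Iroquois gene of the TALE class, went from 13.4 ± 0.328 to 52.9 ± 11.4 CPM in the control line (SD, n = 3; log2 change 1.99, adjusted p = 3.48e-07). Irx1 was at 59.1 ± 2.04 CPM in undifferentiated control and 105 ± 3.03 CPM in undifferentiated LIGHT cells (0.83, adjusted p = 2.19e-05) and fell by 1.19 on differentiation in the LIGHT line (adjusted p = 5.99e-08). In the repeat 3 were higher and 2 lower in LIGHT cells after differentiation, among them Pknox2, a Meis relative, at 1.95 (adjusted p = 3.52e-08), beside 0.74 (adjusted p = 0.913) over all 12 libraries.

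Polycomb proteins keep silent Hox genes closed, and trithorax proteins keep active ones open. Of 30 tested Polycomb genes, 8 rose and 15 fell in the control line, 4 rose and 13 fell in the LIGHT line, with medians of -0.26 and -0.17, and 3 were higher and 2 lower in LIGHT cells before differentiation. In the repeat 10 rose and 14 fell in the control line and 4 rose and 14 fell in the LIGHT line. LIGHT cells had 10 higher and 5 lower before differentiation there, and 7 higher and 5 lower after it, against 0 called after it with the libraries as labelled. Jarid2, a partner of Polycomb complexes, went from 8.97 ± 0.806 to 23.5 ± 3.56 CPM in the control line (1.39, adjusted p = 2.18e-06). Ezh2, the histone H3 lysine methyltransferase of Polycomb, went from 78.4 ± 0.309 to 40.5 ± 6.83 CPM in the LIGHT line (-0.95, adjusted p = 2.84e-05). Cbx2 fell by 0.99 in the control line (adjusted p = 3.34e-06). Of 16 trithorax genes and histone demethylases 3 rose and 6 fell in the control line and 2 rose and 5 fell in the LIGHT line, and in the repeat 3 rose and 6 fell and 4 rose and 6 fell. Before differentiation 2 were higher and 2 lower in LIGHT cells, and 6 and 2 in the repeat. Kdm6b, a demethylase of the Polycomb mark, rose by 1.39 in the control line (adjusted p = 7.42e-06) and 0.92 in the LIGHT line (adjusted p = 0.000264), and Psip1 fell by 0.98 and 1.08 (adjusted p = 1.01e-07 and 5.9e-08).

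Of 15 tested Hox inducers and genes next to the clusters, 8 rose and 6 fell in the control line, 8 rose and 7 fell in the LIGHT line, and 4 were higher and 2 lower in LIGHT cells before differentiation. In the repeat, which tested 16, 8 rose and 6 fell in the control line, 7 rose and 7 fell in the LIGHT line, and 5 were higher and 2 lower in LIGHT cells before and 3 higher and 2 lower after differentiation. Calcoco1, which lies next to the Hoxc cluster, went from 47.3 ± 3.31 to 129 ± 10.1 CPM in the control line (1.45, adjusted p = 7.15e-09). Next to the Hoxd cluster, Mtx2 rose by 0.90 in the control line (adjusted p = 1.49e-06) and by 0.61 in the LIGHT line (adjusted p = 5.27e-05). Lnp, also beside that cluster, fell by 0.48 and 0.41 (adjusted p = 0.00141 and 0.0048). Rarg, a retinoic acid receptor, fell by 0.82 and 1.04 in the control and LIGHT lines (adjusted p = 9.1e-08 and 1.41e-08). Of 19 tested positional factors of other families, 3 rose and 12 fell in the control line, with a median of -0.48, and 3 rose and 11 fell in the LIGHT line. In the repeat 3 rose and 14 fell and 3 rose and 11 fell, and LIGHT cells had 8 higher and 3 lower before (4 and 3 over all libraries) and 4 higher and 0 lower after differentiation. Dlx2, a homeobox gene of limb and face, went from 25.9 ± 1.83 to 2.63 ± 0.0763 CPM in the control line (-3.30, adjusted p = 2.69e-09). Osr1 was higher in LIGHT cells before differentiation, at 0.70 (adjusted p = 0.000503), and fell by 1.69 in the LIGHT line (adjusted p = 4.56e-08). Of the 13 list genes named here apart from Pknox2, all 34 calls on differentiation or before it were kept in the repeat with the same sign, and no log2 fold change moved by more than 0.19.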

How the data were processed

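Total RNA was made into Illumina libraries, per the labels' protocols. The authors deposited 1 table per library with a length, expected counts and FPKM per gene, per the file headers. Expected counts share reads that fit several genes, and FPKM, as deposited, divide by length and library total. Per the submitters' processing notes, mm8 was the build. For aligner, counter and strand use, the sources used here give nothing. Tables list values above 0, and a missing gene was read as 0. Here expected counts were rounded and fitted with the quasi-likelihood test of edgeR 4.0.16, in R 4.3.3, after filterByExpr (minimum count 10) and TMM scaling, with 1 coefficient for each of 4 groups, over 12993 genes. A standard error is |log2 fold change| over √F. The fit was tested on simulated data. Alternatives were DESeq2 1.42.0, limma 3.58.1 on log2 FPKM, other scalings and filters, left-out libraries and summed loci, the last chosen after seeing the data.

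The 16334079 to 19686675 expected counts per library limit precision, and intervals cover counting error only. A ratio to a floor does not cover the counting error of the group with reads. Members and lists were chosen with earlier results of these data known. Genes named are members called in any comparison or leading their family, and up to 3 genes with the smallest p of each list and comparison. Samples were grouped by their labels. Of the replicate numbers, which the groups share, 18 same-number pairs had correlations of deviations from -0.706 to 0.097, so they were not used as pairs. The values -0.706, -0.415 and -0.382 were those between the differentiated groups, which hold the 2 libraries that go against their labels. The rest ran from -0.054 to 0.097. The labels give no batch. Some genes are not reported here.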

Additional observations from a re-analysis of the deposited data

Results flagged for a closer look

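Some genes are listed here because their change on differentiation differed between the lines: the LIGHT change minus the control change passed the test. Over all 12 libraries these were Hoxd8, at -0.43, and Meis2, at -0.72 on the log2 scale. Without the 2 libraries that go against their labels the values included -0.50 for Hoxd8, -0.56 for Meis2, -0.88 for Hoxb2, -1.77 for Hoxd3, -0.33 for Pbx2 and 1.79 for Tbx2. In Hoxd3, whose reads are shared with Hoxd4, the summed counts gave -0.21 (adjusted p = 0.383). Hoxd3 is a small part of that sum, which could hardly show its change. In Tbx2, undifferentiated LIGHT libraries held 11 counts in all. With 3 libraries a group, no single library was tested as an outlier.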

How the results depend on the processing

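Of 49 calls over all 12 libraries, 34 were kept on leaving out each library in turn and 15 were lost in at least 1 case; without Hoxb6, Hoxb8, Pbx4 and Tbx6 these were 44, 31 and 13. In the repeat without the 2 libraries that go against their labels 0 were lost. Other settings lost 8, those of Hoxa4 only in the sum of Hoxa2 to Hoxa5 and Hoxaas2, of which Hoxa4 is a small part. The number of genes called before differentiation was 10, and 16 in the repeat and in the fit of those 2 groups alone, with 5 to 13 on leaving out 1 library. After differentiation it was 0, and 9 in the repeat. For the interaction it was 2, and 8 in the repeat, 4 with DESeq2, 4 with limma on log2(FPKM + 0.5) and 1 to 3 on leaving out 1 library. On differentiation the counts ran from 16 to 22 in the control line and 16 to 18 in the LIGHT line.

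Signs changed in few places. Of the 49 calls over all 12 libraries, 1 had another sign in any setting. It was that of Hoxa4 on differentiation in the LIGHT line, in a sum that was not called. With Hoxa2 to Hoxa5 and Hoxaas2 summed, the change on differentiation was 0.18 in the control line, against the sign of Hoxa5, and -0.21 in the LIGHT line, against Hoxa4. Hoxa4 gave 72 of the 1098.36 summed counts in undifferentiated LIGHT library 1, so the sum could hardly show its rise. Hoxa4 itself kept its sign in the LIGHT line, at 0.98 and at 1.06 in the repeat. Hoxb2 in the LIGHT line was 0.00 with DESeq2 and from -0.29 to 0.13 on leaving out 1 library. Between lines after differentiation, leaving out 1 library gave -0.16 to 0.38 for Hoxa2, -1.22 to 0.33 for Hoxc9, -0.54 to 0.20 for Tbx2 and -0.09 to 0.22 for Tbx18. The end of each range on the side of the repeat came from leaving out a library that goes against its label. The cause was not tested. Scaling by library totals moved the median of all genes by -0.113 on differentiation in the control line and changed no sign among the genes reported. In the repeat it moved the share of calls that were higher from 50.6% to 40.1% there, from 47.1% to 66% between lines after differentiation and from 48.2% to 65.4% for the interaction.

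The replicate block, fitted though the numbers do not pair the samples, gave 19, 18, 8, 0 and 2 called genes for the 5 comparisons. Among the calls it ended was that of Hoxa2 before differentiation (adjusted p = 0.0531). Depth limits Hoxb6, Hoxb8, Hoxc9, Pbx4 and Tbx6, whose groups hold few counts. It also limits Tbx2, which had 2, 8 and 1 counts in undifferentiated LIGHT libraries, a group that enters each of its comparisons but those in the control line and after differentiation.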

Other observations

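Noncoding genes of the clusters were read at low counts; the 2 named were chosen after their values were seen. Hotair, in the Hoxc cluster, had 11, 1 and 1 counts in undifferentiated control, 9, 7 and 12 in undifferentiated LIGHT and 2 to 4 in every differentiated library. Hoxd3os1 had 4 to 6 counts in undifferentiated control, 11 to 13 in undifferentiated LIGHT and 9 to 29 in differentiated libraries.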
